A study of Mus musculus with 24 samples.

Results

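The 9 lines of mouse embryonic stem cells described here each carried a different mutant Ctcf transgene, and they were set against cells that had lost CTCF and switched on no transgene. The mutant lines gave 18 of the 24 libraries of total RNA, 2 from each of R339Q, R342C, S354F, K365T, R377C, R377H, Q418R, R448Q and H455R. They were chosen by their labels, as every library that carries a mutant genotype and was treated with both indole-3-acetic acid (IAA, an auxin) and doxycycline. The line carrying the wild-type transgene gave 2 libraries with the same treatment (WT ID), 2 with IAA alone (WT IAA) and 2 without treatment. All lines derive from E14Tg2a cells of strain 129/Ola that carry an auxin degron on the endogenous CTCF, so IAA removes that protein, and doxycycline switches on the transgene. The treatment lasted 2 days, with doxycycline at 1 µg/ml and IAA at 500 µM. Cultures were free of feeder cells, in serum with leukemia inhibitory factor, CHIR99021 and the MEK inhibitor PD0325901.

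Each substitution is represented by 1 line, so an effect of the substitution and a property of that line cannot be told apart. WT ID, WT IAA and the untreated pair come from 1 line, and no mutant line has libraries with IAA alone. A difference shared by all mutant lines therefore cannot be told apart from a property of the wild-type line. The mutant lines and WT ID received doxycycline and WT IAA did not, so transgene and doxycycline cannot be told apart either. The labels do not say whether the 2 libraries of a group came from separate cultures, and p-values measure only the spread between these samples.

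CTCF binds DNA through a row of zinc fingers and, together with cohesin, sets the borders of chromatin loops and domains. It can separate a promoter from an enhancer or bring them together, and stem cells that lose it change the expression of many genes over days. The design asks how far the RNA of cells without the endogenous protein changes when a wild-type CTCF, or one with 1 altered residue, is supplied.

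The 9 substitutions fall in 4 coding exons of the reference Ctcf transcript, which has 736 codons on the plus strand of mouse chromosome 8 (GRCm38). The sequences below show where each altered residue lies, with the codon of that residue in capitals between 12 reference bases on each side. They are the reference gene and were not read from the transgenes. In each case the codon encodes the first letter of the label. R339Q, R342C and S354F share exon 5, K365T and the pair R377C and R377H share exon 6, Q418R and R448Q share exon 7, and H455R lies in exon 8.
R339Q: ggagaattggtgCGGcatcgtcgttat
R342C: gtgcggcatcgtCGTtataaacacact
S354F: ccatttaagtgtTCCatgtgtgattat
K365T: gtagaagtcagcAAAttaaaacgacac
R377C: catactggagagCGCccgttccagtgc
R377H: catactggagagCGCccgttccagtgc
Q418R: gctcggtttaccCAGagtggtaccatg
R448Q: actgtcatagccCGAaaaagtgatttg
H455R: gatttgggtgtcCACttgcgaaagcag

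Recovered depth ran between 27.8 and 77.1 M reads in genes per library over the 22 treated libraries. All libraries looked like embryonic stem cells by their markers. The summed level of 10 stem cell markers was 8511 to 10618 TPM (a level scaled for gene length and for the total of the library) in the mutant lines, 9230 to 9625 TPM in WT ID and 8672 to 8939 TPM in WT IAA. Summed fibroblast markers lay between 13.9 and 42.9 TPM in the mutant lines, 25.2 and 27.2 TPM in WT ID, and 25.4 and 25.5 TPM in WT IAA, and 6 of the 11 were below 0.1 TPM in all 22 libraries. Of the small sets for other lineages, neural markers summed to 37.2 to 168 TPM in the mutant lines, 48.1 to 57.1 TPM in WT ID and 74.4 to 79.8 TPM in WT IAA. Trophectoderm markers summed to 10.6 to 46.7 TPM in the mutant lines, 19.3 to 28.8 TPM in WT ID and 23.7 to 28.9 TPM in WT IAA. The part of these lineage markers in the results below was not tested.

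Ctcf RNA was present in every group, since the degron acts on the protein. Its normalized count, the number of reads divided by the size factor of the library, was 8262, 11236 and 20661 (lowest, median and highest of the 18 libraries) in the mutant lines, 9973 and 10418 in WT ID, and 9248 and 9113 in WT IAA. The mutant mean was 0.39 ± 0.05 above WT IAA on the scale of log2(normalized count + 1), used for all log2 differences below (SE, limma, adjusted p = 2.71e-06), and the difference was 0.23 once each line was centred on its chromosome medians. Ctcf was called higher in 7 lines, most in R448Q (1.15) and H455R (0.88), where the median gene of chromosome 8 was shifted by 0.47 and 0.49. The count does not separate transgene from endogenous RNA. Since the strand setting of the counting is not given, values of genes that overlap another gene on the opposite strand are uncertain, which among genes with values here applies to Ctcf, Dok2, G0s2, Klk10, Evc, Fam174b, Crybg1, B2m, Stat3, Ccnd1, Krtcap2, Hmgb1 and the Xlr and protocadherin clusters.

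Against WT IAA, the mean of the 9 mutant lines differed in 6746 of 18713 genes tested (36.05% at an adjusted p under 0.05, limma). Of these, 3493 genes (18.7%) were higher and 3253 (17.4%) lower in the mutant lines, and 557 and 463 of them differed at least 2-fold. This test takes its error from the 2 libraries of each group. When each line was reduced to 1 mean and the error was taken between the 9 lines, with the lone WT IAA mean assumed to vary like them, limma called only 3 genes after adjustment, and 1278 (6.83%) had an unadjusted p under 0.05. Those 3 were Il9r (5.67 ± 0.52, adjusted p = 0.0017), Marveld3 (2.45 ± 0.29, adjusted p = 0.0141), and the predicted gene Gm47647 (−4.70). Calls for the mean therefore describe these 9 lines, and the consistency over the lines is given beside them.

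The single lines differed widely in how many genes they called against the same 2 WT IAA libraries. R448Q called 8760 of them (46.8%), with 23.6% of all genes higher and 23.2% lower, and R342C called 8097 (43.3%, with 20.5% higher and 22.8% lower). K365T followed with 7630 (40.8%, with 22.1% higher and 18.7% lower), R377H with 6926 (37.01%, with 20.5% higher and 16.5% lower) and Q418R with 5924 (31.7%, with 15.03% higher and 16.6% lower). The lowest numbers were 5141 in S354F (27.5%, with 14.2% higher and 13.3% lower), 4785 in H455R (25.6%, with 13.8% higher and 11.8% lower), 4676 in R377C (24.99%, with 12.97% higher and 12.02% lower) and 2947 in R339Q (15.7%, with 9.12% higher and 6.63% lower). WT ID called 3868 genes against WT IAA (20.7%, with 10.7% higher and 9.96% lower), so 8 of the 9 mutant lines called more than the wild-type transgene and R339Q called fewer. Counts of calls are not effect sizes, since the difference in number between lines was not tested. Without 1 of its own libraries, R339Q called 1313 genes, S354F 2774, R377C 2328 and H455R 2930. Without WT IAA replicate 2, WT ID called 1804.

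**Figure D1:**
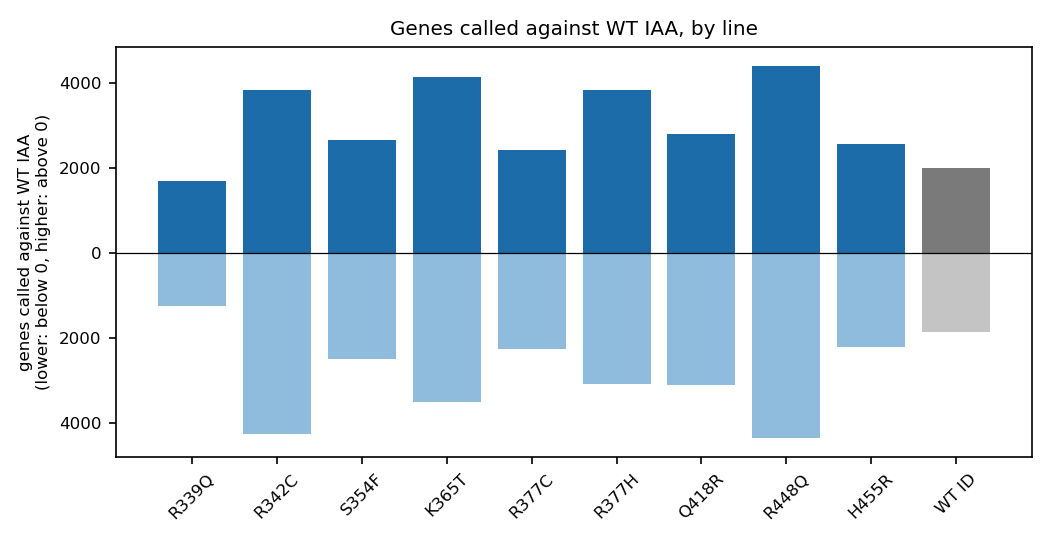
Genes called against WT IAA in each mutant line (blue) and in WT ID (grey), as numbers of genes on the vertical axis, with higher genes above 0 and lower genes below 0. R448Q has 4411 higher and 4349 lower genes, R339Q has 1706 and 1241, and WT ID has 2004 and 1864.

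The split between higher and lower genes depended on the scale. On normalized counts, 3837 genes were higher and 4260 lower in R342C, 4138 and 3492 in K365T, 3837 and 3089 in R377H, 2813 and 3111 in Q418R, and 4411 and 4349 in R448Q. On TPM these splits were 4484 higher and 3061 lower in R342C, 3035 and 4311 in K365T, 2682 and 4256 in R377H, 1694 and 4266 in Q418R, and 2823 and 6244 in R448Q. TPM moved the median of all genes by −0.17 in R448Q and −0.11 in R377H, whereas on normalized counts that median lay between −0.02 and 0.01 in the 9 lines.

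Agreement over all 9 lines was far rarer than calls in any line. 302 genes (1.61%) were called higher in all 9 lines and 172 (0.919%) were called lower in all 9, together 474 (2.53%). On TPM these numbers were 178 higher and 186 lower. In all 474 genes every mutant library lay on the same side of both WT IAA libraries. That separation of 18 from 2 libraries was met by 980 genes above (5.24%) and 904 genes below (4.83%). A further 434 genes were called higher and 268 lower in exactly 8 lines, and the line without the call was R339Q in 124 and 95 of them, H455R in 123 and 40, and Q418R in 83 and 71. At the other end, 3080 genes (16.5%) were called higher in at least 1 line and lower in at least 1 other, and 3721 (19.9%) were called in no line. Leaving out WT IAA replicate 1 lowered the number called in all 9 lines to 249, leaving out WT IAA replicate 2 lowered it to 260, and leaving out R339Q replicate 1 or 2 lowered it to 304 or 300. Among genes with an annotated type, protein-coding genes were 284 of 294 called higher in all 9 (96.6%) and 158 of 169 called lower (93.5%). Over all genes tested they were 14208 of 18275 (77.7%). The 3 sets also differed in level, with median normalized counts of 899, 1593 and 474.

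**Figure D2:**
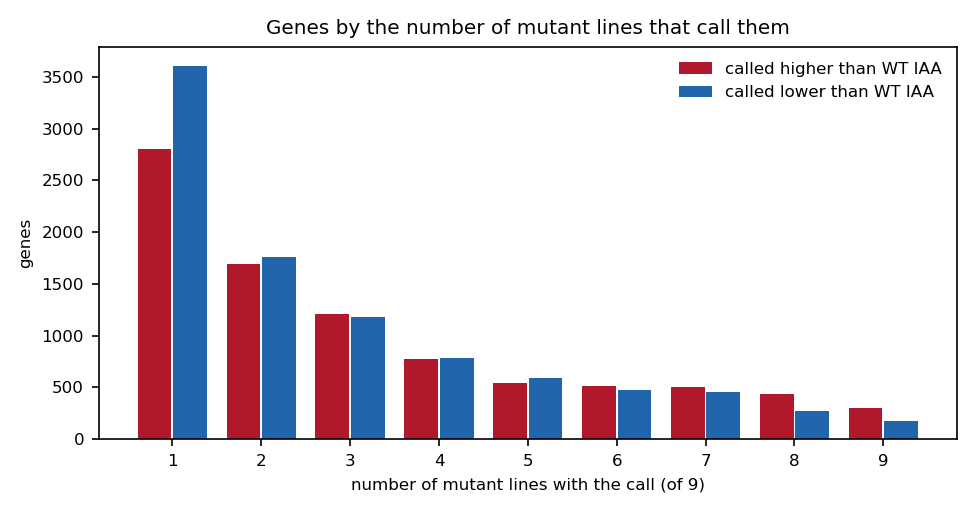
Number of genes (vertical axis) by the number of mutant lines, of 9, in which they were called higher (red) or lower (blue) than WT IAA. Calls in 1 line are the most frequent, with 2806 higher and 3609 lower genes, and 302 and 172 genes reach all 9 lines.

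Genes called higher in all 9 lines were led by Il9r, the receptor chain for interleukin 9 (chr11:32187541-32200279, minus strand). Its normalized count was 54.5, 93.6 and 196 (lowest, median, highest) in the mutant lines, 82.7 and 83.2 in WT ID, and 2.68 and 0 in WT IAA, where only 3 reads and 0 reads were counted. No mutant library came near the WT IAA pair, and the WT ID pair lay inside the range of the mutants. The ratio of mutants to WT IAA was 67.5, with a 95% counting interval of 23.1 to 327, and the difference from WT ID was 0.22 ± 0.31 (adjusted p = 0.688, limma). In TPM, the only unit set across the separately scaled tables, the median was 1.43 in the mutant lines and the mean was 0.0205 in WT IAA, with 0.020 and 0.082 in the untreated libraries. Both untreated libraries were thus near WT IAA and far below the mutant lines at this gene.

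Rapgef4, an exchange factor for Rap proteins that responds to cyclic AMP, had 87.2, 125 and 338.8 normalized counts in the mutant lines, 72.4 and 70.2 in WT ID, and 15.2 and 19.5 in WT IAA. Every mutant library exceeded both WT ID libraries as well as both WT IAA libraries, and the mean was 2.96 ± 0.18 above WT IAA (adjusted p = 6.36e-10). Untreated cells again had low Rapgef4, at 0.061 and 0.037 TPM, beside a median of 1.34 TPM in the mutant lines and 0.197 TPM in WT IAA.

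Duox1, a dual oxidase that makes hydrogen peroxide, had 373, 593 and 1399 normalized counts in the mutant lines, 510 and 548 in WT ID, and 81.3 and 98.8 in WT IAA. The mutant and WT ID libraries overlapped, and both stood clear of WT IAA (2.79 ± 0.16 for the mutants, adjusted p = 2.66e-10). Iqgap2, a scaffold protein of the actin cytoskeleton, had 299, 810 and 1070 normalized counts in the mutant lines, 331 and 320 in WT ID, and 111 and 122 in WT IAA. Here 8 of the 9 lines lay above WT ID and the 2 H455R libraries lay just below it.

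Snx19, a sorting nexin, and the small nucleolar RNA host gene Snhg17 also differed widely between lines. Snx19 had 71.9, 326 and 672 normalized counts in the mutant lines, 265 and 306 in WT ID, and 45.6 and 54.9 in WT IAA. S354F and H455R were nearest to WT IAA, with H455R at 0.67 above it, and R448Q was at 3.52. Snhg17 had 283, 827 and 2127 normalized counts in the mutant lines, 1017 and 1045 in WT ID, and 148 and 162 in WT IAA, lowest in R339Q (0.88) and highest in R448Q (3.74). In untreated cells both were high, at 6.99 and 8.02 TPM for Snx19 and 28.6 and 23.2 TPM for Snhg17, against 0.567 and 1.67 TPM in WT IAA.

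Marveld3, a tight junction protein (chr8:109947914-109962203, minus strand), varied little between lines, with log2 differences of 2.23 to 2.74. It had 41.1, 68.1 and 102 normalized counts in the mutant lines, 31.5 and 31.1 in WT ID, and 10.7 and 13.4 in WT IAA, so all 18 mutant libraries were above WT ID. Hhip, an inhibitor of hedgehog ligands, had 104, 215 and 1284 normalized counts in the mutant lines, 71.0 and 47.1 in WT ID, and 54.5 and 42.7 in WT IAA. The wild-type transgene thus left Hhip within reach of WT IAA (0.26 ± 0.27, adjusted p = 0.564), while every mutant library was higher than both.

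G0s2, an inhibitor of the lipase that breaks down stored fat, was 2.29 ± 0.30 above WT IAA in the mutants and 2.13 ± 0.40 above it in WT ID. Chac1, which degrades glutathione, had 541, 1087 and 1796 normalized counts in the mutant lines, 1593 and 1477 in WT ID, and 254 and 207 in WT IAA. It was 2.27 ± 0.11 above WT IAA (adjusted p = 4.84e-11) but 0.46 ± 0.11 below WT ID in the mutants (adjusted p = 0.00527). Tle7 (2.27 ± 0.23) and the fibrinogen gamma chain gene Fgg (2.26 ± 0.35) completed the 12.

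**Figure D3:**
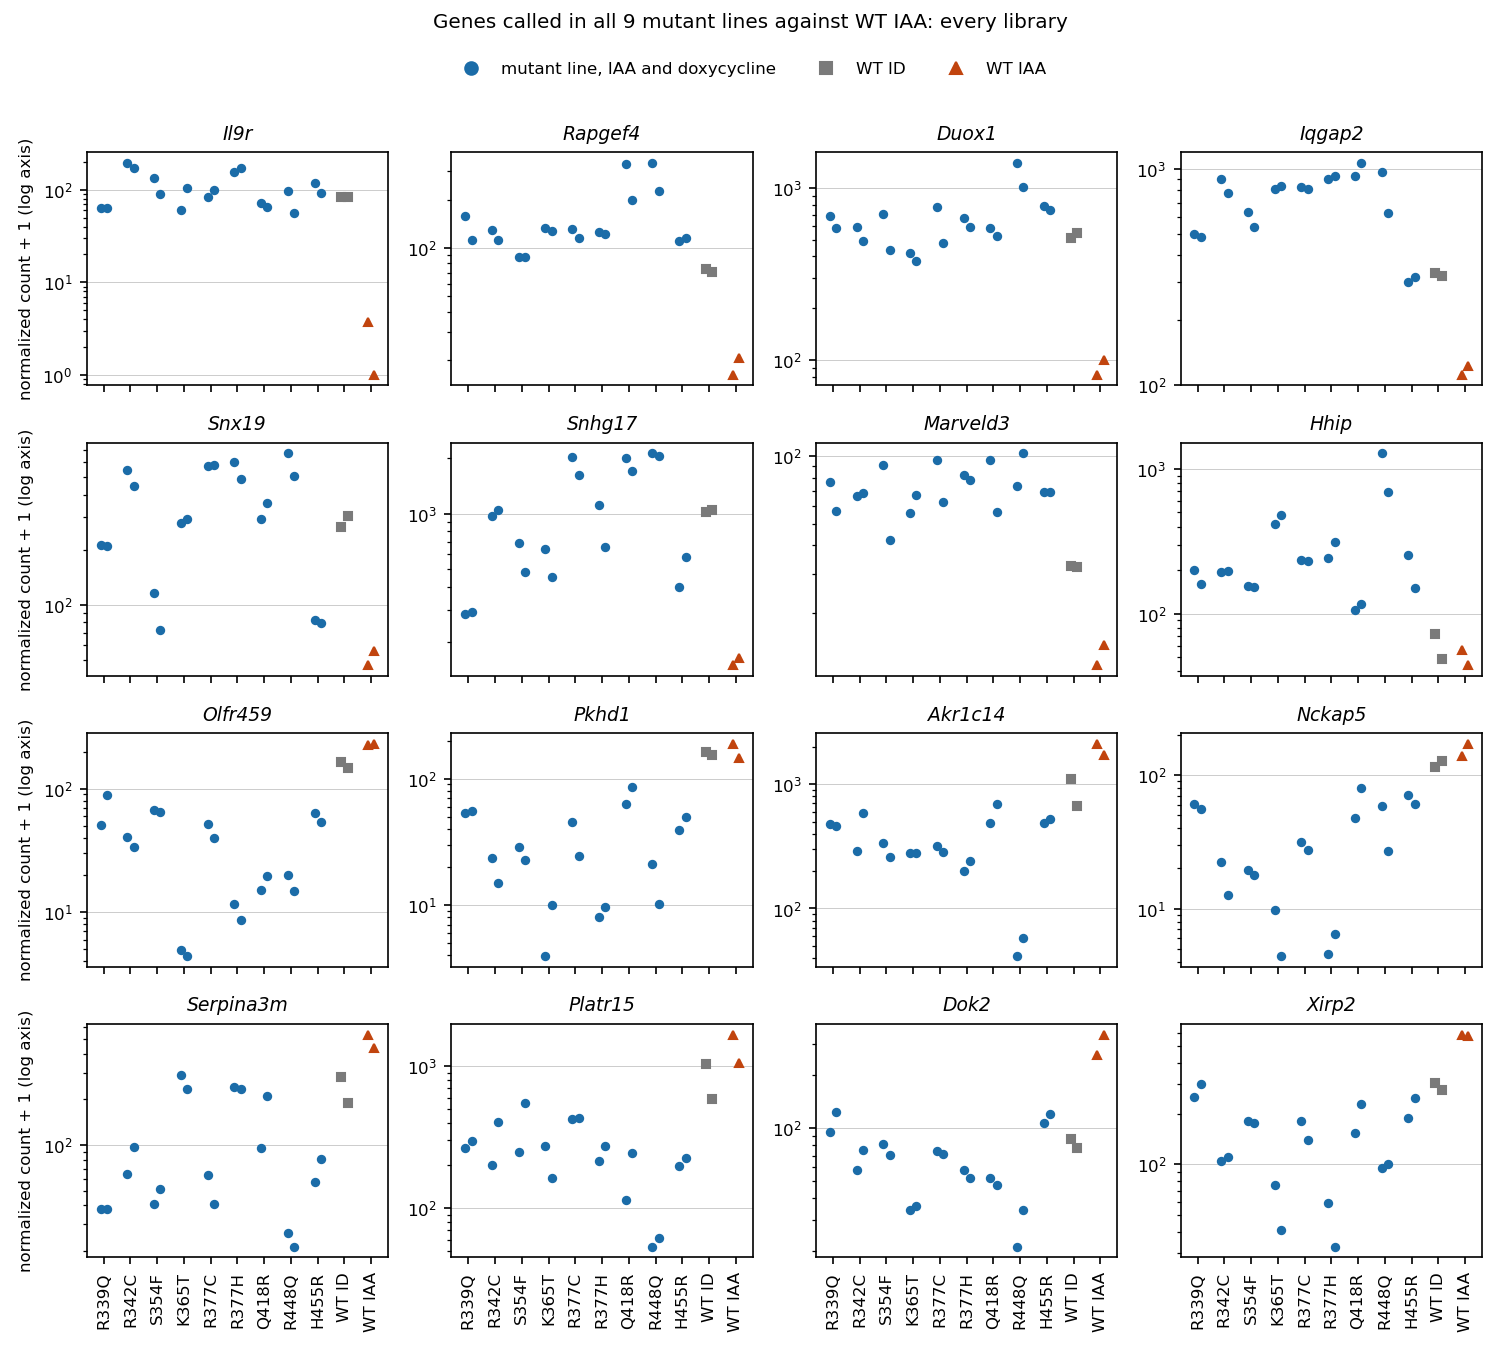
Normalized count + 1 on a log axis for each library of the 9 mutant lines (blue circles), WT ID (grey squares) and WT IAA (orange triangles). The upper 2 rows hold 8 genes called higher in all 9 lines and the lower 2 rows hold 8 called lower, and in each panel all 18 mutant libraries lie on 1 side of both WT IAA libraries.

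The strongest decreases shared by all 9 lines were mostly deeper in the mutants than in WT ID. Olfr459, an olfactory receptor gene, had 3.41, 35.7 and 88.0 normalized counts in the mutant lines, 162 and 146 in WT ID, and 226 and 229 in WT IAA. No mutant library reached the WT ID pair, and the mutant mean was 3.12 ± 0.23 below WT IAA on the log2 scale (adjusted p = 5.61e-09), with WT ID at −0.56 ± 0.30 (adjusted p = 0.213). Pkhd1, which encodes the ciliary protein fibrocystin, had 2.93, 23.1 and 84.3 normalized counts in the mutant lines, 163 and 153 in WT ID, and 188 and 145 in WT IAA. WT ID and WT IAA overlapped, and every mutant library was lower than all 4 (−2.81 ± 0.32, adjusted p = 1.53e-06).

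Nckap5 followed the same arrangement, with 3.41, 26.2 and 79.2 normalized counts in the mutant lines, 113 and 125 in WT ID, and 137 and 170 in WT IAA. For these 3 genes both untreated libraries were above the mutant medians in TPM. The mutant medians were 0.699 TPM for Olfr459, 0.128 TPM for Pkhd1 and 0.156 TPM for Nckap5. In the same order, untreated values were 5.20 and 5.36 TPM, 0.594 and 0.648 TPM, and 0.602 and 0.646 TPM.

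Akr1c14, an aldo-keto reductase of steroid metabolism, had 40.3, 303 and 686 normalized counts in the mutant lines, 1100 and 662 in WT ID, and 2107 and 1703 in WT IAA. R448Q was lowest and only Q418R reached the lower WT ID library. The mutant mean was −2.70 ± 0.20 and WT ID was −1.15 ± 0.27 relative to WT IAA. Untreated cells were at 0.312 and 0.176 TPM, while the mutant median was 7.53 TPM and the WT IAA mean 44.7 TPM, so the mutants lay above untreated cells at this gene. Serpina3m, of the serine protease inhibitor family, was −2.65 ± 0.24 in the mutants and −1.07 ± 0.32 in WT ID, and the noncoding RNA Platr15 was −2.58 ± 0.29 and −0.76 ± 0.39 (adjusted p = 0.185 for WT ID).

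Further decreases covered adaptor, structural and developmental genes. Dok2, an adaptor downstream of tyrosine kinases, had 20.2, 63.2 and 122 normalized counts in the mutant lines, 85.6 and 76.2 in WT ID, and 262 and 340 in WT IAA, with the mutants and WT ID overlapping. Gja1, which encodes the gap junction protein connexin 43, had 496, 2039 and 4240 normalized counts in the mutant lines, 5136 and 3715 in WT ID, and 7763 and 6817 in WT IAA. Xirp2, an actin-binding protein of muscle, was −2.21 ± 0.21 and the retinal homeobox gene Vsx1 was −2.06 ± 0.23. Ct55 was at −2.13 ± 0.22 in the mutants, close to WT ID at −1.89 ± 0.30.

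The mean of the mutants was also tested directly against WT ID. This asks whether the mutant lines differ from WT ID, and transgene and line cannot be told apart in it. In this comparison 3869 genes (20.7%) were called, 2095 higher (11.2%) and 1774 lower (9.48%) in the mutants. Without WT ID replicate 1 the number was 1434 and without WT ID replicate 2 it was 1739, and with line means as the unit it was 3 (Gm47647, Gm5138 and Spast). Of the 302 genes called higher than WT IAA in all 9 lines, 139 were called higher than WT ID and 19 lower. Of the 172 called lower in all 9 lines, 100 were called lower than WT ID and 2 higher. The same mutant libraries enter both comparisons.

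Of 329 genes called at least 2-fold higher in WT ID than in WT IAA, 288 were also called higher in the mutant mean. Of 492 called at least 2-fold lower, 301 were also called lower. Shares over all genes tested were 18.7% and 17.4%. The median part of the WT ID difference seen in the mutant mean was 82.6% and 56.3%. The direct test called 68 and 231 of them short of WT ID. Both comparisons share WT IAA, which favours agreement. Some genes differed between WT ID and WT IAA while the mean of the mutants stayed near WT IAA. They were picked for this pattern, so their values are a description. Kcna2, a voltage-gated potassium channel, had 5.96, 53.1 and 139 normalized counts in the mutant lines, 219 and 151 in WT ID, and 60.8 and 30.5 in WT IAA. All 18 mutant libraries were below both WT ID libraries, and the lines fell on both sides of WT IAA. Pgc, which encodes pepsinogen C, had 156, 356 and 589 normalized counts in the mutant lines, 774 and 756 in WT ID, and 322 and 317 in WT IAA.

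The water channel gene Aqp8, the melanosome receptor gene Gpr143 and Tmem211 were at 0.17 ± 0.24, −0.18 ± 0.26 and 0.23 ± 0.18 in the mutants and at 1.25 ± 0.32, 1.18 ± 0.35 and 1.15 ± 0.24 in WT ID, relative to WT IAA. Without WT ID replicate 1, the difference between mutants and WT ID was no longer called for Aqp8 (−0.91), Gpr143 (−1.17) and Tmem211 (−0.82).

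In the other direction, Tek, the receptor for angiopoietins, had 91.1, 119 and 306 normalized counts in the mutant lines, 41.0 and 34.1 in WT ID, and 139 and 200 in WT IAA. All mutant libraries were above WT ID, and they overlapped WT IAA. Fam174b had 120, 191 and 301 normalized counts in the mutant lines, 70.2 and 67.2 in WT ID, and 204 and 246 in WT IAA. The centriolar gene Cntln, the sorting nexin gene Snx20 and Crybg1 were at −0.07 ± 0.24, −0.22 ± 0.14 and −0.34 ± 0.17 in the mutants, against −1.58 ± 0.32, −1.52 ± 0.18 and −1.51 ± 0.23 in WT ID. The melanocortin receptor gene Mc5r was at −0.36 ± 0.34 in the mutants and −1.55 ± 0.46 in WT ID, and the call on their difference was lost without either WT ID library (1.44 and 0.92) and without the R448Q line (0.91).

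A second set was called in all 9 lines and lay away from WT ID in the same direction. Hhip led the increases of this kind, followed by Rbm44, a germ cell RNA-binding protein, which had 146, 274 and 730 normalized counts in the mutant lines, 87.1 and 89.2 in WT ID, and 100 and 144 in WT IAA. Clip4 had 239, 479 and 859 normalized counts in the mutant lines, 149 and 158 in WT ID, and 131 and 146 in WT IAA. No mutant library overlapped the other 4 at either gene. The testis histone gene H2bc1 was 1.81 ± 0.21 above WT IAA in the mutants, the transcription factor gene Stat4 1.96 ± 0.15 and the zinc finger gene Zfp612 1.43 ± 0.11, and in WT ID these were 0.25 ± 0.28, 0.41 ± 0.20 and 0.00 ± 0.15.

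Among the decreases of this kind, beside Pkhd1, Olfr459 and Nckap5, Arhgef38, a guanine nucleotide exchange factor, had 106, 308 and 525 normalized counts in the mutant lines, 1371 and 1222 in WT ID, and 1196 and 875 in WT IAA. Aass, an enzyme of lysine breakdown, had 119, 358 and 506 normalized counts in the mutant lines, 1137 and 1061 in WT ID, and 1045 and 961 in WT IAA. Clca3b had 20.03, 220 and 352 normalized counts in the mutant lines, 685 and 529 in WT ID, and 736 and 462 in WT IAA. At each of the 3 genes the WT ID and WT IAA libraries overlapped or adjoined and all mutant libraries were lower.

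Genes with opposite calls in different lines show how far the lines departed from one another. Dll1, a Notch ligand, had 295 and 430 normalized counts in R342C (3.71) and 8.07 and 5.54 in R448Q (−1.82), with 155 and 70.2 in WT ID and 55.4 and 12.2 in WT IAA. Ephx2, an epoxide hydrolase, had 6411 and 6156 normalized counts in Q418R (3.06) and 210 and 143 in H455R (−2.11), with 1433 and 1870 in WT ID and 712 and 793 in WT IAA. Klk10, a kallikrein protease gene, was highest in H455R (1.55) and lowest in R448Q (−3.43).

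Evc, a ciliary gene of hedgehog signalling, was called higher in 7 lines, up to 3.502 in R448Q, and lower in Q418R (−1.23). Col6a3, a collagen VI chain, was called higher in 7 lines, with 404 and 447 normalized counts in R377H (3.85), and lower in H455R (−0.86). Cdx2, a caudal homeobox gene of trophectoderm and posterior embryo, was called higher in Q418R (1.12), R448Q (2.03) and H455R (0.99) and lower in R342C (−1.19), S354F (−0.91) and R377H (−2.43). The Y-linked demethylase gene Kdm5d was called higher in K365T (1.99) and R377H (1.36) and lower in R339Q (−3.26), R342C (−2.32) and S354F (−2.05). Bdkrb2, a bradykinin receptor gene, was called higher in R342C (1.36) and lower in R448Q (−3.01). The mean of the 9 lines hides such genes, and it was called for Evc and Col6a3 among these 8.

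The gene lists gave a picture of which programs moved together, each read against the background of 18.7% of all tested genes higher and 17.4% lower in the mean of the mutants. With line means as the unit, limma called 0 of the 702 list genes after adjustment, and 95 had an unadjusted p under 0.05. Values below come from the fit on libraries, and log2 medians of a list stand beside −0.004 for all genes tested.

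The integrated stress response, the program by which the factor ATF4 raises amino acid transport and synthesis genes, stood highest by its share. Of its 40 genes, 36 were higher and 0 lower in the mean of the mutants, with a median of 0.90, and 17 were higher in all 9 lines. Calls in single lines ran between 19 higher in R339Q, where 9.12% of all genes were higher, and 39 in R342C, and R448Q had 30 higher and 2 lower. WT ID had 36 higher and a median of 0.94, against a background of 10.7% higher. The test of mutants against WT ID called 1 of the 40 higher and 5 lower. With line means as the unit, 29 of the 40 had an unadjusted p under 0.05, beside 6.83% of all genes, and 0 were called after adjustment.

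Among its members, Atf4 had 10860, 13932 and 16811 normalized counts in the mutant lines, 17240 and 16182 in WT ID, and 9063 and 8636 in WT IAA. Trib3, a pseudokinase that inhibits ATF4, had 1215, 2517 and 3670 normalized counts in the mutant lines, 3121 and 2617 in WT ID, and 801 and 695 in WT IAA. Neither gene overlapped WT IAA in any mutant library, and R339Q was the lowest and R342C the highest line for both. The hormone genes Stc2 and Fgf21 were 1.78 ± 0.17 and 1.69 ± 0.30 above WT IAA.

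The clustered protocadherins are neighbouring cell-surface genes whose promoter choice depends on CTCF. Of 57 found, 16 passed the filter on low counts, and a member can pass through the libraries where it is high, so counts over those that passed favour higher values and say nothing of the family. In the mean of the mutants 10 were higher and 0 lower, and WT ID gave 10 and 0. R448Q called 12 higher and 1 lower, S354F and Q418R 12 higher each, and H455R 4. Reads were few in WT IAA, and the ratio of mutants to WT IAA was 14.7 for Pcdhga8 (95% counting interval 4.1 to 121), 13.2 for Pcdhgb4 (3.6 to 109) and 12.9 for Pcdhga3 (3.6 to 107). The summed count of the 16 genes ran between 1705 and 2480 in the mutant lines, 2062 and 2284 in WT ID, and 1926 and 1933 in WT IAA, so the sums overlapped. Values of single members are uncertain, since the treatment of reads shared by near-identical genes is not given.

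The Xlr3, Xlr4 and Xlr5 genes, a cluster of near-identical copies on the X chromosome, were lower in the mutants and not in WT ID. All 9 tested were lower in the mean of the mutants (median −2.22). In WT ID, 0 were called by limma, edgeR and DESeq2 and 0 had an unadjusted p under 0.05 (median 0.08), and all 9 were called lower in the mutants than in WT ID. The summed count of the 9 genes was 704 and 942 in R339Q at the lowest and 4648 and 4721 in Q418R at the highest, against 6780 and 6254 in WT ID and 6327 and 5305 in WT IAA. The sum of every mutant library was thus below all 4 others. Xlr3c had 88.0, 272 and 963 normalized counts in the mutant lines, 1644 and 1561 in WT ID, and 1499 and 1233 in WT IAA. By line, R339Q, R342C, S354F, R377C and H455R had all 9 lower, K365T, R377H and R448Q had 6, and Q418R had 1, and 1 gene, Xlr5c, was lower in all 9 lines. The copies share reads, so they are not 9 separate observations.

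Genes of the 2-cell-like state, a rare state of stem cells that switches on genes of the early embryo, leaned below WT IAA in the mutants and in WT ID. Of 21 tested, 11 were lower and 0 higher in the mean of the mutants (median −1.04), and 17 were lower in WT ID (median −2.28). The direct test called 8 of the 21 higher and 1 lower in the mutants than in WT ID. R342C had 15 lower and R377C 2. Most calls of this list were lost without either WT IAA library, while its median was −0.84 without replicate 1 and −1.12 without replicate 2. Zscan4e had 3.41, 18.1 and 52.4 normalized counts in the mutant lines, 5.12 and 7.02 in WT ID, and 54.5 and 42.7 in WT IAA, and its call was lost without either WT IAA library. Many of these genes are multi-copy, and their values are uncertain.

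Targets of p53, the stress-responsive transcription factor, leaned downward. Of 30 tested, 20 were lower and 2 higher in the mean of the mutants (median −0.30), and 18 were lower and 1 higher in WT ID (median −0.43). The lines ran between 22 lower in R448Q and 2 in R339Q, and 10 of the 30 were called higher in the mutants than in WT ID. Without WT IAA replicate 2 fewer of the 30 were called lower, in a fit that called fewer genes of any kind, and the median was −0.25.

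Germline and meiosis genes leaned upward in the mutants. Of 37 tested, 16 were higher and 1 lower in the mean of the mutants (median 0.46), WT ID had 3 higher and 7 lower (median −0.09), and 20 were called higher in the mutants than in WT ID. Stag3, a meiotic cohesin subunit, had 1611, 2867 and 3813 normalized counts in the mutant lines, 1887 and 1869 in WT ID, and 1229 and 1216 in WT IAA. Tdrkh, a tudor protein of the piRNA pathway, had 47.7, 93.0 and 156 normalized counts in the mutant lines, 32.2 and 38.1 in WT ID, and 25.9 and 29.3 in WT IAA, with no overlap between mutants and the rest. Tdrd1, of the same pathway, was 1.94 ± 0.25 above WT IAA.

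Core and naive pluripotency genes had a small median difference, though a larger share of them was called higher than the background of 18.7%. Among 28 core and naive genes, 11 were higher and 4 lower (median 0.12), and without WT IAA replicate 1 only 6 were higher. Nanog was at −0.05 ± 0.06 (adjusted p = 0.54) and Sox2 at −0.05 ± 0.06 (adjusted p = 0.555), while Pou5f1 was called at 0.18 ± 0.06 (adjusted p = 0.0208) and not on TPM (0.14) or after centring on chromosomes (0.12). Stat3 was higher in all 9 lines (0.60 ± 0.06), and the Nodal antagonist gene Lefty2 was lower in 7 (−2.10 ± 0.37). Immediate early and ERK feedback genes had 11 lower and 0 higher of 23 (median −0.46), with Phlda1 at −1.25 ± 0.13, Etv1 at −1.15 ± 0.12 and Myc at −1.11 ± 0.18.

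Imprinted genes moved both ways, 13 higher and 17 lower of 54, and 15 were called higher and 15 lower than WT ID. Without either WT IAA library the number higher than WT IAA was 7. Peg10, a gene expressed from the paternal allele, was 1.94 ± 0.22 above WT IAA in the mutants and 0.89 above it in WT ID, and the maternally expressed gene Phlda2 was −1.52 ± 0.17 in the mutants and −0.45 in WT ID. Cohesin subunits and CTCF partners had 3 higher and 10 lower of 26 (5 lower without WT IAA replicate 1 and 6 without replicate 2), with the cohesin regulator Pds5b lower in all 9 lines (−0.60 ± 0.05). Ctcfl, the germ cell paralogue of CTCF, was called higher (1.32, adjusted p = 0.0391) on few reads, and at 0.12 without WT IAA replicate 2.

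Cholesterol synthesis showed 5 higher and 3 lower of 23 in the mean of the mutants, and 9 higher and 0 lower in WT ID. Without WT IAA replicate 1, 1 was lower in the mutants. The direct test called 12 of the 23 lower and 1 higher in the mutants. Heat shock genes had 4 higher and 8 lower of 30 (5 lower without either WT IAA library), with the small heat shock protein gene Hspb1 (−0.88 ± 0.09) and Hsph1 (−1.11 ± 0.08) lower in all 9 lines. Nuclear genes of oxidative phosphorylation had 16 higher and 3 lower of 48, which became 10 and 7 on TPM, 7 and 1 without WT IAA replicate 1, and 4 and 0 without replicate 2. The 13 mitochondrially encoded genes had 0 calls by limma, edgeR and DESeq2, with 4 at an unadjusted p under 0.05 in each. MHC class I and antigen processing genes had 6 higher and 1 lower of 16 (2 higher without WT IAA replicate 1), including B2m, the light chain of MHC class I, in all 9 lines (0.82 ± 0.08). Primitive endoderm genes had 8 higher and 6 lower of 16, Hox genes 2 and 8 of 31, and replication-dependent histone genes 6 and 0 of 17. Without WT IAA replicate 1 there were 4 higher primitive endoderm genes, 4 lower Hox genes and 3 higher histone genes, and the 2 higher Hox genes became 1 without replicate 2.

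The other lists are given by their counts alone. Higher and lower counts were 3 and 8 of 36 for glycolysis and hypoxia, 9 and 10 of 39 for cell cycle and replication, and 2 and 7 of 18 for formative and primed pluripotency. They were 4 and 3 of 19 for Wnt targets, 4 and 6 of 19 for BMP signal and Id genes, and 4 and 4 of 20 for DNA methylation. Lineage lists gave 2 and 4 of 11 for mesendoderm, 1 and 1 of 9 for neural ectoderm, 2 and 5 of 15 for trophectoderm, and 3 and 2 of 9 for fibroblast genes. The rest were 3 and 2 of 15 for interferon response, 3 and 0 of 19 for small nucleolar RNA host genes, and 4 and 5 of 17 for aryl hydrocarbon receptor and xenobiotic genes. Several of these counts changed when 1 WT IAA library was left out. The medians moved less in some lists than in others. For glycolysis and hypoxia the median was −0.035, and −0.045 and −0.08 without replicates 1 and 2. For trophectoderm it was −0.207, and −0.425 and 0.065. Without replicate 1 they were 2 and 2 for glycolysis and hypoxia, 6 and 3 for cell cycle and replication, 2 and 2 for Wnt targets, 2 and 5 for BMP signal, 0 and 1 for DNA methylation, 0 and 3 for mesendoderm, 1 and 0 for neural ectoderm and 1 and 1 for fibroblast genes. Without replicate 2 they were 1 and 3 for glycolysis and hypoxia, 4 and 5 for cell cycle and replication, 1 and 4 for BMP signal, 1 and 2 for DNA methylation, 0 and 0 for neural ectoderm, 1 and 5 for trophectoderm, 2 and 1 for fibroblast and 2 and 1 for interferon genes.

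**Figure D4:**
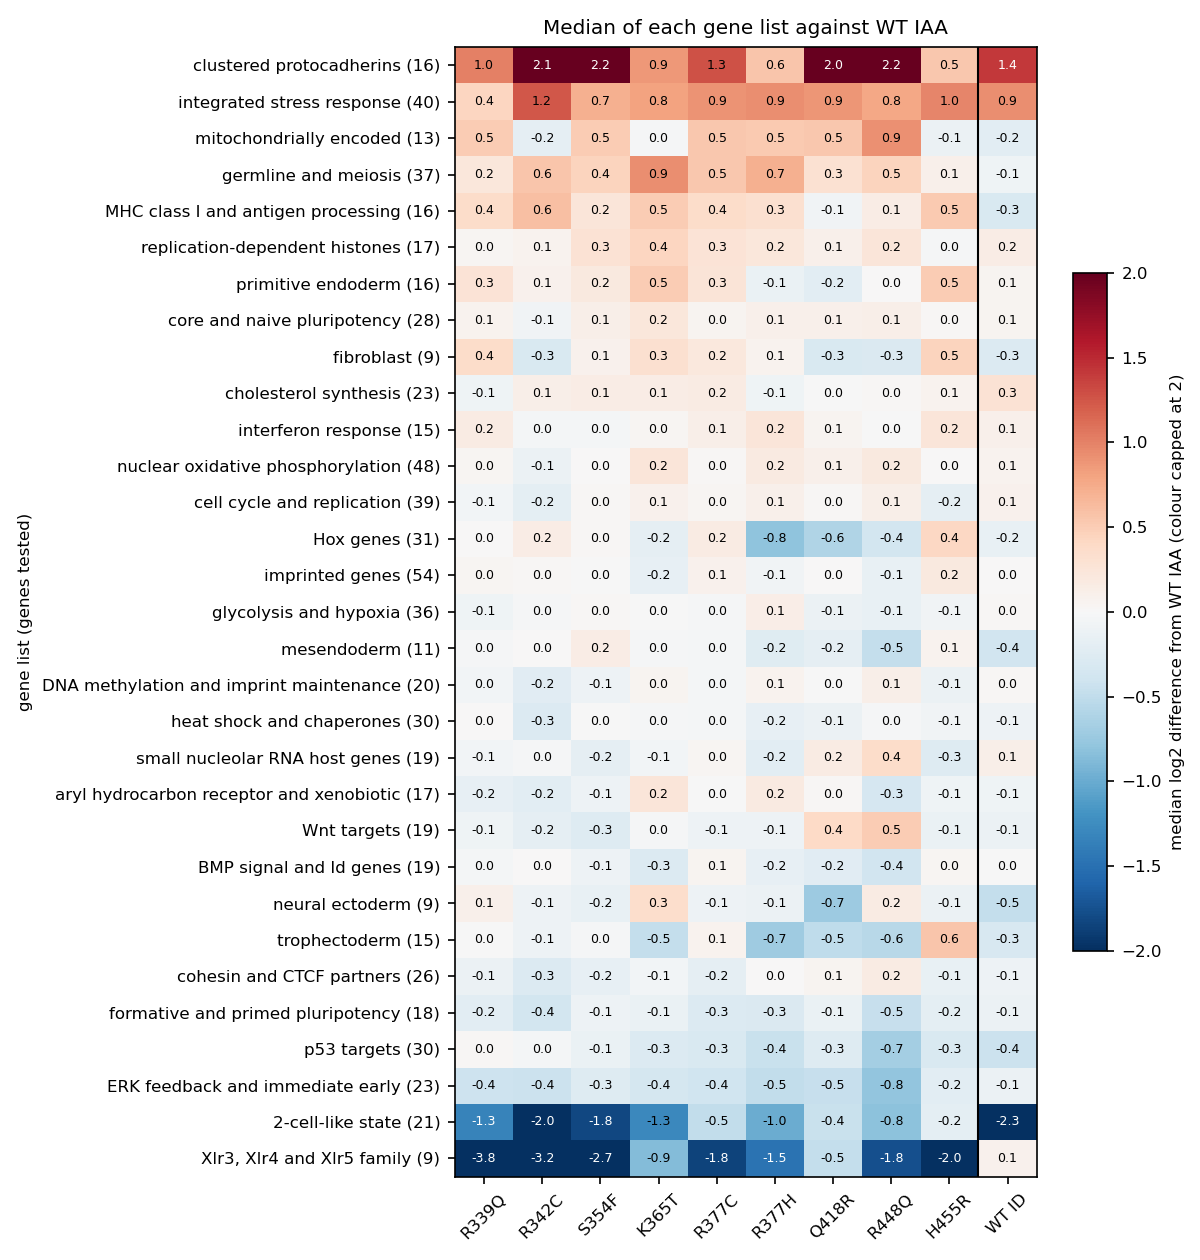
Median log2 difference from WT IAA of each gene list (rows, with the number of genes tested) in the 9 mutant lines and in WT ID (columns), with red for higher, blue for lower and the colour capped at 2. The integrated stress response is above 0 in all 10 columns, and the Xlr family is below −0.4 in every mutant line and at 0.08 in WT ID.

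Whole chromosomes stood apart in some lines, which bears on calls in single lines. The median gene of a chromosome was shifted by 0.45, 0.46 and 0.47 on chromosomes 1, 3 and 8 in R448Q, by 0.49 on chromosome 8 in H455R, and by 0.54 on chromosome 11 in R377H. It was shifted by 0.39 on chromosome 11, 0.23 on chromosome 1 and 0.21 on chromosome 8 in K365T, and by −0.48 on chromosome 6 and 0.20 on chromosome 1 in Q418R. In WT ID every autosomal and X median lay between −0.05 and 0.04. After each line was centred on its chromosome medians, 6541 genes were called in the mean and 473 in all 9 lines, so these 2 counts were nearly the same. Single lines with shifted chromosomes called fewer, with 8208 in R448Q, 6877 in K365T, 6420 in R377H, 5611 in Q418R and 4399 in H455R. In R339Q, R342C, S354F and R377C the numbers were 2933, 8125, 5171 and 4680. Centring on a whole chromosome leaves a shift of only part of it in place. Chromosome 11 held 2.18% of its genes among those higher in all 9 lines and 0 among those lower, and chromosome 6 held 0.628% and 1.88%. Chromosome 8 held 3.09% and 0.213%, chromosome 17 held 3.12% and 0.96%, and chromosome 18 held 0.484% and 2.42%. The shares over all genes tested were 1.61% and 0.919%.

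2 stretches of neighbouring genes moved together in most mutant lines, and they were picked out after their values had been seen. On chromosome 17, genes between Clip4 and Fam98a (chr17:71768473-75551946, mm10) were higher in all mutant lines. Of 16 tested, 15 were called higher than WT IAA in the mean and 12 in all 9 lines, and 15 were called higher than WT ID. Line medians lay between 0.66 in R342C and 1.02 in R448Q, against −0.10 in WT ID. Clip4 and Spast, both named above for their difference from WT ID, lie in this stretch and moved with their neighbours. Further along, between Crim1 and the last gene tested (chr17:78200248-94878321), 64 of 75 genes were called higher in the mean and 62 were called higher than WT ID. There the medians were 0.90 to 1.012 in 8 lines, −0.09 in H455R and 0.03 in WT ID. The 742 genes before Clip4 had medians between −0.10 and 0.04 in the mutant lines. The 91 genes of the distal stretches held 18 of the 302 genes higher in all 9 lines, which leaves 284 elsewhere.

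**Figure D5:**
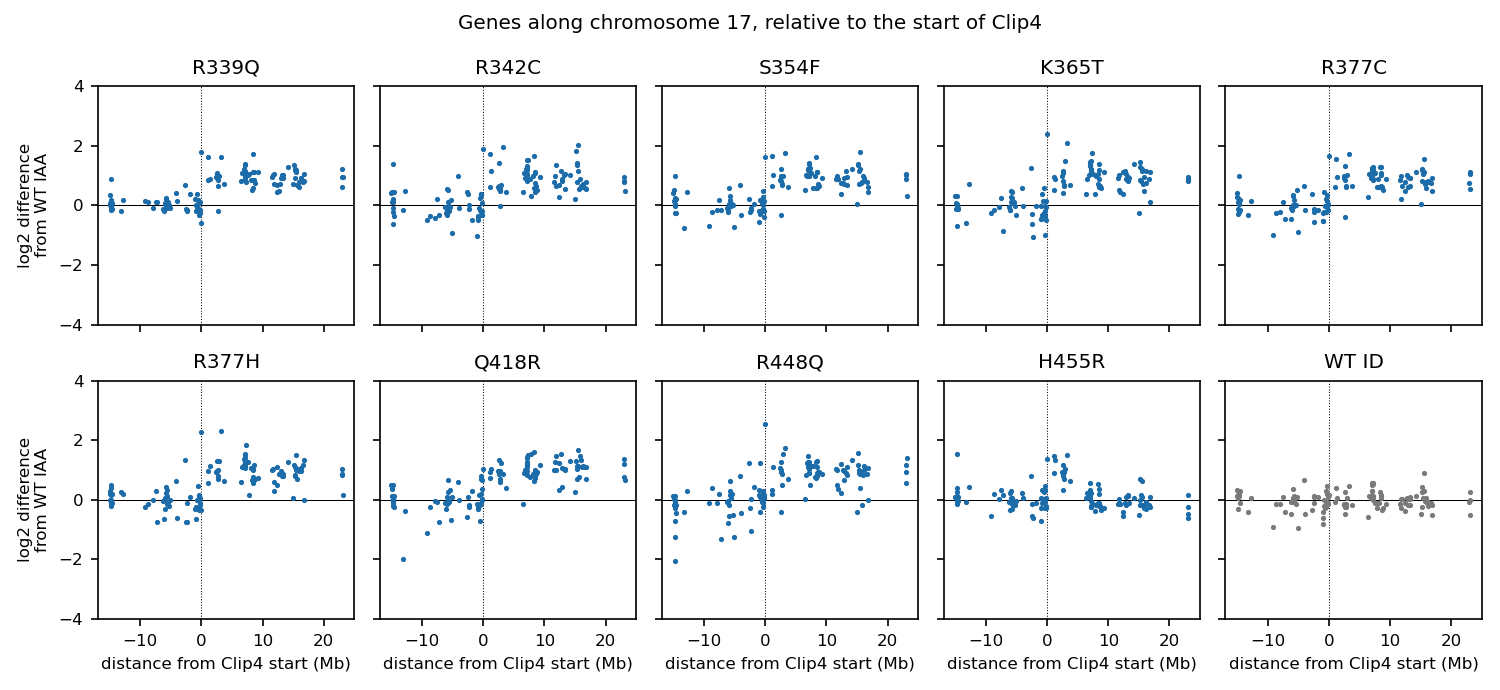
Log2 difference from WT IAA (vertical axis) of 124 genes along distal chromosome 17, by distance in Mb from the start of Clip4, in each mutant line (blue) and in WT ID (grey), for genes with a mean of at least 50 normalized counts. Medians past Crim1 are 0.90 to 1.012 in 8 mutant lines, −0.09 in H455R and 0.03 in WT ID.

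On chromosome 5, genes between Hmgb1 and Pds5b (chr5:149046702-150810690) were lower. Of 20 tested, 12 were called lower than WT IAA in the mean, 6 in all 9 lines, and 13 were called lower than WT ID. Line medians lay between −0.67 in K365T and −0.36 in R342C, with Q418R at −0.01 and WT ID at 0.14. Pds5b, named above among the cohesin regulators, and Hsph1, named above among the heat shock genes, lie in this stretch and moved with their neighbours.

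Promoter sequence was searched for a shortened form of the core CTCF motif, CCANNAG followed after any 2 bases by GGC, on both strands of windows that hold 250 bases before and 50 bases after each start site (RefSeq, GRCm38.p6). The motif was present in 12 of 325 windows of genes higher in all 9 lines (3.69%), in 3 of 153 windows of genes lower in all 9 (1.96%), in 2.75% of windows of all genes tested and in 2.43% of all 32851 windows. The shares were close together and were not tested. The 4 sites below are shown because they belong to the 3 largest increases with the motif on the strand of the gene, and to Hmgb1, the first gene of the chromosome 5 stretch. Capitals mark the motif, each line reads along the gene's own strand, and a match is not evidence of binding.
Krtcap2 (chr3:89246343-89246402, plus strand, mean log2 difference 1.81): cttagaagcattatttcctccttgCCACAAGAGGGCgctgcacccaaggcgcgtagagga
Adprhl2 (chr4:126321724-126321783, minus strand, mean log2 difference 1.55): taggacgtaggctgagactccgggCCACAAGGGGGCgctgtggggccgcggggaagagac
Wdr41 (chr13:94976287-94976346, plus strand, mean log2 difference 1.44): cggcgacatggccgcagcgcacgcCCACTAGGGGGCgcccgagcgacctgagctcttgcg
Hmgb1 (chr5:149053033-149053092, minus strand, mean log2 difference −0.57): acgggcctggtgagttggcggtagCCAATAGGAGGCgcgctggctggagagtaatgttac
None of the 30 windows found for 24 of 32 named genes, those leading the increases and decreases in all 9 lines among them, held these letters.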

How the data were processed

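Total RNA was measured in 24 libraries, and the 18 mutant libraries, WT ID and WT IAA were compared here in a table of 22. The submitters' processing notes name Trim Galore, STAR, DESeq2 and the mm10 build, while tool versions, the read counter, its annotation and its strand setting were not given in the sources used here. Normalized counts, the signal that the authors deposited, are reads per gene after division by a library's size factor. Whole reads were recovered from them (100% of values within 0.001 of a multiple of 1 step, 27.8 to 77.1 M reads per library). The authors also deposited TPM. The untreated pair sits in a separately scaled table, so it is set beside the others in TPM only and untested. The tables held 0 columns from outside the series. Of 55291 gene symbols, 53186 were matched once in GENCODE M21 (GRCm38).

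Values were taken as log2(normalized count + 1), genes with a mean of at least 10 were kept (18713), and 1 coefficient per group was fitted with limma 3.58.1 (lmFit, eBayes with trend, R 4.3.3; degrees of freedom were 11 residual and 8.13 prior). P-values are two-sided, with Benjamini-Hochberg adjustment inside each comparison, and an adjusted p under 0.05 was called. The 9 single comparisons and the mean of the 9 share the 2 WT IAA libraries. The fit was tested on simulated data by the median fold and the share of false calls, criteria chosen after a first one, on the number of changed genes recovered, was not met. Alternatives were edgeR 4.0.16 and DESeq2 1.42.0 on recovered reads, TPM + 0.1, other filters and pseudocounts, quantile normalization, centring on chromosomes, a replicate block, line means as the unit, and leaving out libraries or lines.

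The members, the 31 gene lists and the tests were chosen with earlier results of these data known. Genes are named by rule. From genes with a mean of at least 50 and no model or clone name, these are the 12 largest increases and decreases called in all 9 lines with no overlap of libraries, the 6 per direction called in WT ID with the mutants near WT IAA, the 6 per direction beyond WT ID, the 8 with opposite calls and the widest range, and up to 4 called per list. 2 genes that meet these rules are not reported here. Further genes (Atf4 in the stress response, Pds5b and the genes at region borders, those carrying the motif and those called with line means) were chosen after their values were seen. Intervals on read ratios are exact Poisson and cover counting error only. Promoter windows are RefSeq, GRCm38.p6. Values of near-identical families are uncertain, since the handling of multi-mapping reads is not given.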

Additional observations from a re-analysis of the deposited data

Results flagged for a closer look

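For the following named genes the effect in the mutant lines and the effect of WT ID, both against WT IAA, differed by the direct test of mutants minus WT ID (log2 difference, limma, adjusted p under 0.05). Many were picked for this difference, so the test is a description of them, and none passed with line means as the unit. Among genes called higher in all 9 lines, the mutants were above WT ID at Hhip (2.06), Rbm44 (1.73), Clip4 (1.69), H2bc1 (1.55), Stat4 (1.55), Zfp612 (1.43), Tle7 (1.15), Marveld3 (1.14), Iqgap2 (1.08) and Rapgef4 (0.97), and below it at Chac1 (−0.46). Among genes called lower in all 9 lines, the mutants were below WT ID at Pkhd1 (−2.75), Olfr459 (−2.56), Nckap5 (−2.30), Arhgef38 (−2.12), Clca3b (−1.998), Aass (−1.83), Platr15 (−1.82), Serpina3m (−1.58), Akr1c14 (−1.55), Vsx1 (−1.31), Gja1 (−1.28) and Xirp2 (−1.20).

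Where WT ID was above WT IAA and the mutants stayed near WT IAA, the difference was −2.09 for Kcna2, −1.36 for Gpr143, −1.12 for Pgc, −1.08 for Aqp8 and −0.92 for Tmem211. Where WT ID was below WT IAA, it was 1.86 for Tek, 1.51 for Cntln, 1.39 for Fam174b, 1.296 for Snx20, 1.18 for Mc5r and 1.17 for Crybg1. Of genes called in opposite directions in different lines, Evc (1.85) and Col6a3 (1.505) were higher and Ephx2 (−0.87) lower than WT ID in the mean of the mutants, a mean over lines that disagree.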

How the results depend on the processing

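Taking line means as the unit lowered the genes called in the mean of the mutants to 3, both against WT IAA (6746 otherwise) and against WT ID (3869 otherwise), and 166 of 187 values of named genes lost their call. Under the other settings that kept all libraries, the number against WT IAA stayed within 1.5 times, including 6908 with edgeR, 6631 with DESeq2, 6539 on TPM (2774 higher and 3765 lower), 6959 after quantile normalization and 6541 after centring on chromosomes. The number in all 9 lines was 465 with edgeR, 480 with DESeq2, 364 on TPM, 336 with no filter on low values and, in a setting chosen after seeing the data, 456 without distal chromosome 17. Counting 8 lines at a time, also chosen after seeing the data, gave 479 to 693. Leaving out 1 library gave 3849 to 7147 for the mean against WT IAA, 1434 to 4202 against WT ID, 1804 to 4126 for WT ID against WT IAA and 249 to 502 in all 9 lines. By line the ranges were 1313 to 3224 (R339Q), 6071 to 8335 (R342C), 2774 to 5445 (S354F), 5389 to 7873 (K365T), 2328 to 4951 (R377C), 4944 to 7259 (R377H), 3959 to 6278 (Q418R), 6960 to 8981 (R448Q) and 2930 to 5052 (H455R). In fits that left a group with 1 library, that library was assumed to vary like the other groups. A change of sign was followed only for values of named genes called in the main fit or in the other setting. Among those, only Vim changed sign, to −0.011 from the mean of R339Q, R342C, S354F and R377C (0.34 from all 9 lines). Replicate numbers gave no pairing common to all groups. Correlations of replicate deviations ran from −0.25 to 0.38 over 55 pairs of groups (median 0.02), with 10 above 0.1 and 7 under −0.1. Batches shared by some of the groups were not tested. With the replicate block 6794 genes were called against WT IAA, 3881 against WT ID and 464 in all 9 lines, and the 187 values of named genes kept their side of the threshold. Depth limits genes with few reads in WT IAA, such as Il9r and the protocadherins named with their counting intervals.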

Other observations

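Some members of the lists with few calls are given here with their values. Dkk1, a secreted Wnt antagonist on the Wnt list, was lower in 8 lines (adjusted p = 5.88e-08 in the mean, limma), with a mutant median of 16.5 TPM and a WT IAA mean of 71.5 TPM, while the untreated libraries were at 0.542 and 0.235 TPM. Aldh3a1, an aldehyde dehydrogenase of the xenobiotic list, was higher in all 9 lines (2.17 ± 0.23, adjusted p = 6.17e-07), with a mutant median of 9.17 TPM and a WT IAA mean of 2.21 TPM, while the untreated libraries were at 3.02 and 3.94 TPM. Vegfa, the growth factor for vessels on the hypoxia list, was higher in all 9 lines (0.74 ± 0.07) and below WT ID by the direct test (−0.29, adjusted p = 0.00505). The cyclin gene Ccnd1 was higher in the mean of the mutants (0.89 ± 0.07) and in 6 lines, and not called in WT ID (−0.01, adjusted p = 0.966). Lefty2, lower in 7 lines, had a mutant median of 5.17 TPM and a WT IAA mean of 19.6 TPM, with 106 and 109 TPM in the untreated libraries. The untreated values were not tested.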
